A study of Bos taurus with 6 samples.

Results

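Transcripts of 51 genes that build and control the mitotic spindle, the kinetochore and the cleavage furrow were followed in cumulus cells of cattle, which enclose the oocyte within its follicle. The genes were listed by name for their known roles in mitosis, with earlier results of these data known. Of the 51, 38 had at least 1 probe set with a single gene symbol on the Affymetrix bovine array, out of 9155 such genes in all. These 38 genes were read by 58 probe sets, and each gene was represented by its probe set with the highest mean signal. The other 13 genes (MKI67, TOP2A, CENPE, NUF2, SPC25, TTK, PTTG1, KIF11, PRC1, RACGAP1, ANLN, SMC2 and CDC25B) were not analysed here.

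Cumulus-oocyte complexes came from ovaries of crossbred cows (Bos indicus x Bos taurus) taken at slaughter, and RNA was extracted from pools of mechanically removed cumulus cells. In the large-follicle group, 3 arrays measured cells of follicles of 8 mm or more, called competent in the labels. In the small-follicle group, 3 arrays measured cells of follicles of 1 to 3 mm, called incompetent. The submitters use follicle size as a stand-in for the capacity of the oocyte to develop. Neither the age of the cows nor any treatment is given, and all groups share the requirement of a homogeneous cytoplasm and several compact cumulus layers. The labels call the arrays biological replicates without saying how many cows or complexes made up a pool, and p-values here rest on the spread from pool to pool. The number of arrays limits the precision.

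In a dividing cell, cyclins A and B activate the kinase CDK1, chromosomes condense, and kinetochores assembled on the centromeres capture the microtubules of the spindle. A checkpoint of BUB and MAD proteins holds the anaphase-promoting complex (APC/C), a ubiquitin ligase, until every chromosome is attached, after which cyclin B is destroyed and the cell cleaves. Most of these genes are transcribed in G2 and M phase, so in a tissue their RNA tends to follow the share of dividing cells. Cumulus cells of growing follicles proliferate, and they leave the cycle as the follicle approaches ovulation. In pooled RNA, fewer dividing cells and less RNA per dividing cell cannot be told apart.

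All mitotic genes that passed the test were lower in cumulus cells of large follicles. The cyclin CCNA2, the spindle protein NUSAP1, the kinetochore protein CENPN, the checkpoint protein BUB1B and the cytokinesis factor ECT2 differed most among them. Their signals were 1.88, 1.77, 1.76, 1.74 and 1.72-fold higher in small follicles. Of 38 genes, 10 fell, 0 rose and 28 did not pass. The test was limma's moderated test on the log2 signals, adjusted by Benjamini-Hochberg across the 24016 probe sets and called at 0.05. By the same call, 8.3% of the 9155 genes were lower in large follicles and 7.08% higher, against 26.3% and 0% of the mitotic genes. At an unadjusted p under 0.05, 25 of the 38 were lower and 0 higher, against 1525 lower and 1332 higher of all 9155 genes. Counted over probe sets, 10 of the 58 were lower and 0 higher, where 7.16% of all 24016 were lower and 5.72% higher, and 55 of the 58 differences were below 0.

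The median of the 38 log2 differences (large minus small) was -0.50, a 1.42-fold higher signal in small follicles, and the median over all 9155 genes was 0.01. A difference below 0 was found in 37 of 38 mitotic genes and in 48.6% of all genes. In 14 of the 38 every large-follicle array lay below every small-follicle array, which held for 18.9% of all genes. The differences ran from -0.91 in CCNA2 to 0.05 in BUB3, the gene with a positive difference, named after its value was seen.

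**Figure D1:**
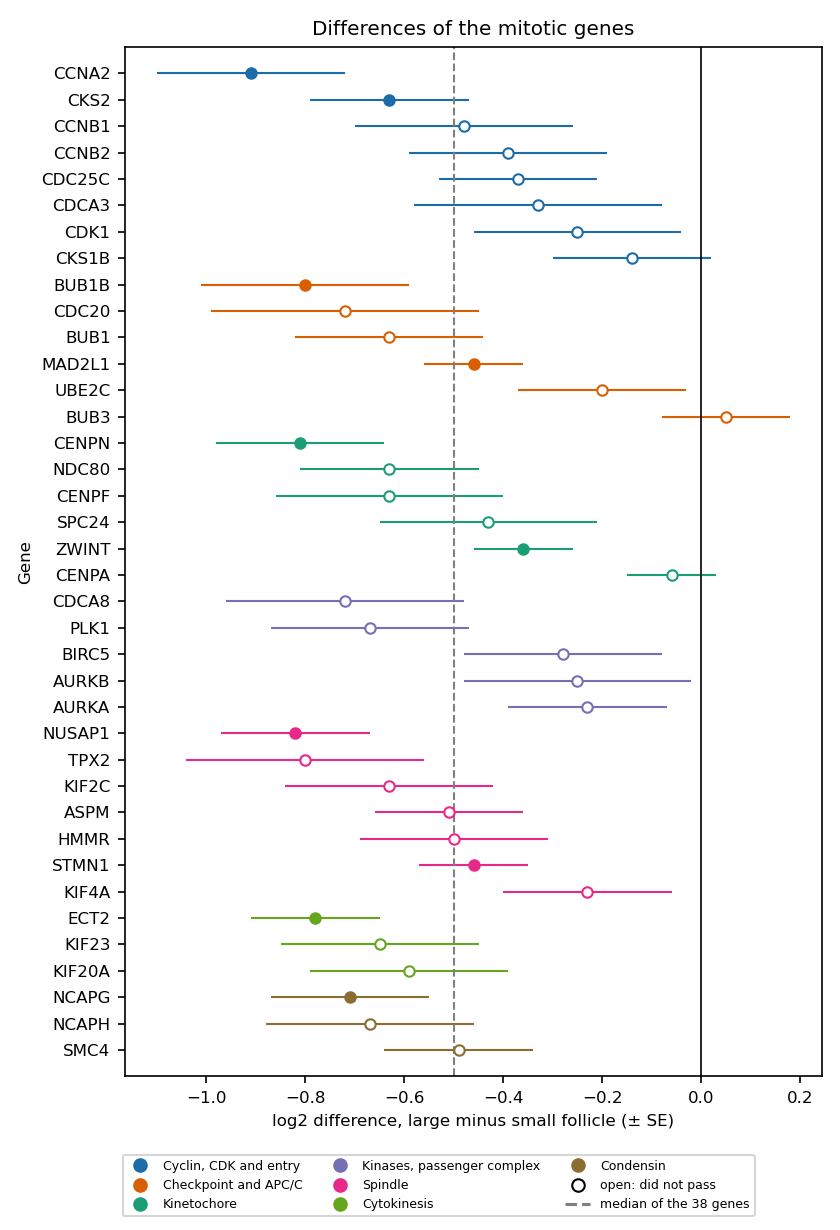
Log2 difference between large and small follicles (horizontal axis, large minus small, ± SE, 3 arrays a group) for the 38 measured mitotic genes (vertical axis), coloured by role; filled points passed at an adjusted p under 0.05. All points but BUB3 lie left of 0, and the dashed line marks the median of -0.50.

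The size of the shift differed between arrays of a group. Set against each gene's own mean over the 6 arrays, the median deviation of the 38 genes was -0.35, -0.50 and 0.06 in large-follicle replicates 1, 2 and 3, and 0.35, 0.48 and 0.00 in small-follicle replicates 1, 2 and 3. Small-follicle replicate 2 held the highest of the 6 signals for 29 genes, and large-follicle replicate 2 the lowest for 31. The replicate 3 arrays of both groups lay between these extremes and close to each other. In large-follicle replicate 3, 37 of 38 genes were above the mean of the other large-follicle arrays (median shift 0.47), and in small-follicle replicate 3, 35 of 38 were below the mean of the other small-follicle arrays (median shift -0.42). Both shifts occurred in 35 of the 38 genes, or 92.1%, against 35.8% of all genes.

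**Figure D2:**
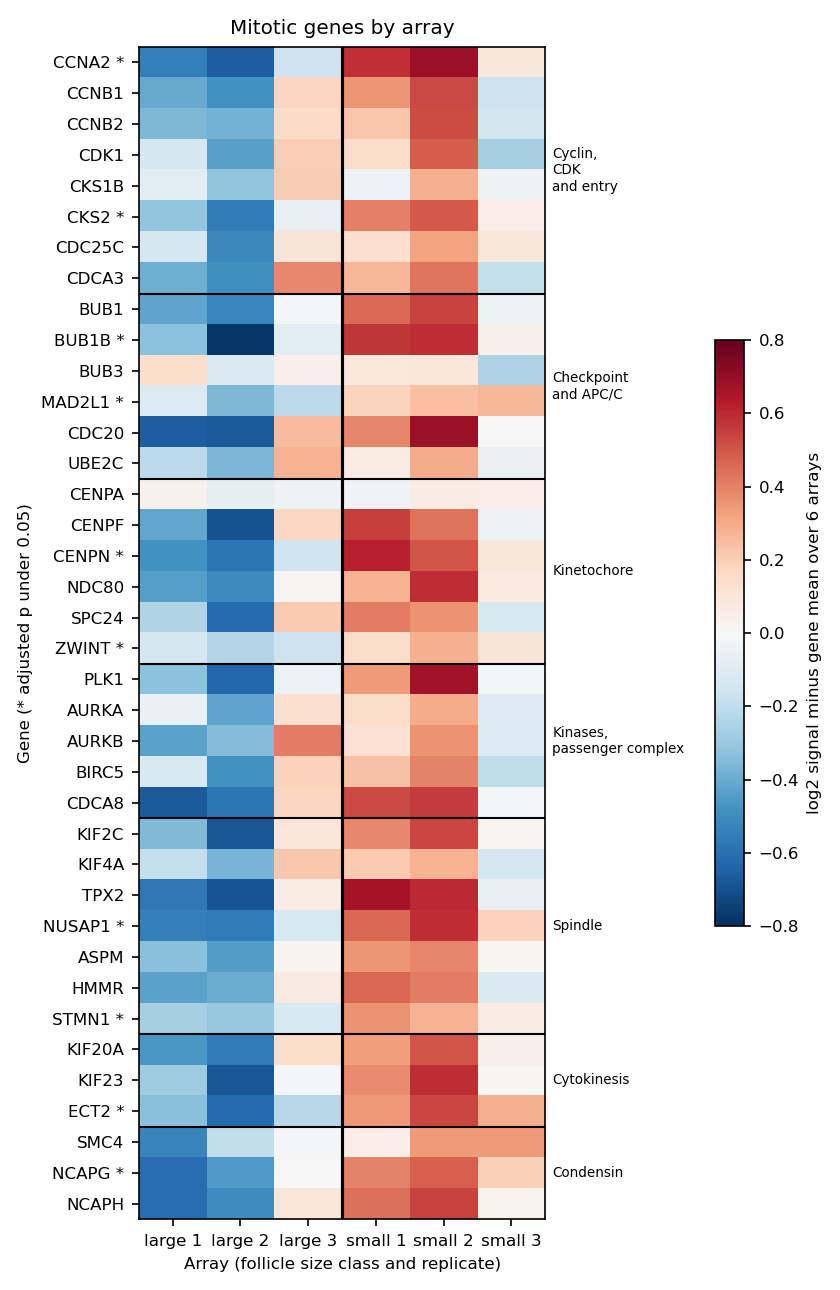
Log2 signal minus the gene's mean over the 6 arrays (colour) for the 38 mitotic genes (rows, grouped by role, an asterisk for an adjusted p under 0.05) in each array (columns). Large-follicle replicates 1 and 2 are blue and small-follicle replicates 1 and 2 red in nearly every row, with median deviations of -0.35, -0.50, 0.35 and 0.48, while both replicate 3 arrays are pale.

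The genes moved together from array to array. The correlation of each gene with the median of the other 37 over the 6 arrays ran from 0.29 in BUB3 to 1.00 in ASPM, with a median of 0.95. After group means were taken out the median correlation was again 0.95, and it was lowest in CENPA (-0.01), MAD2L1 (0.14) and SMC4 (0.26). These values describe 6 arrays whose points share a library each, and the genes named for them were picked after their values were seen.

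The first role is entry into mitosis. Of 8 measured genes, 2 fell, CCNA2 and CKS2, and 6 did not pass, with a median difference of -0.38. CCNA2, a cyclin that acts from S phase into early mitosis, read 7.17, 7.06 and 7.55 in large follicles and 8.30, 8.41 and 7.81 in small follicles, with no overlap. Its difference was -0.91 ± 0.19 (SE, n = 3 per group; adjusted p = 0.0162). CKS2, a small CDK-binding subunit, read 10.61, 10.37 and 10.86 against 11.33, 11.42 and 10.98, again without overlap (difference -0.63 ± 0.16, adjusted p = 0.037), and its replicate 3 arrays differed by -0.12. Its near relative CKS1B differed by -0.14 ± 0.16 and overlapped between groups.

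The cyclin B genes, whose products drive CDK1 at mitotic entry, did not pass. CCNB1 read 8.03, 7.95 and 8.61 in large follicles and 8.79, 8.96 and 8.27 in small follicles (-0.48 ± 0.22, adjusted p = 0.213), and CCNB2 differed by -0.39 ± 0.20. In CCNB1 large-follicle replicate 3 exceeded small-follicle replicate 3, while the other 4 arrays did not overlap. CDK1, the kinase itself, read 8.82, 8.52 and 9.15 against 9.10, 9.44 and 8.69 (-0.25 ± 0.21, adjusted p = 0.532). CDC25C, the phosphatase that activates CDK1, and CDCA3, an adaptor in the degradation of the inhibitor WEE1, differed by -0.37 ± 0.16 and -0.33 ± 0.25.

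Among 6 genes of the spindle checkpoint and the APC/C, BUB1B and MAD2L1 fell and 4 did not pass (median difference -0.54). BUB1B, the checkpoint protein BubR1, read 7.76, 7.31 and 8.00 in large follicles and 8.66, 8.68 and 8.13 in small follicles (-0.80 ± 0.21, adjusted p = 0.0392). MAD2L1, the MAD2 protein that binds CDC20, read 9.28, 9.03 and 9.18 against 9.57, 9.63 and 9.66, a difference of -0.46 ± 0.10 (adjusted p = 0.0223). Unlike most of the list, MAD2L1 was no lower in small-follicle replicate 3 than in the other small-follicle arrays (0.06 above their mean). The kinase BUB1 read 8.27, 8.17 and 8.68 against 9.14, 9.23 and 8.65, with an overlap of 0.03 between the replicate 3 arrays, and just missed the threshold (-0.63 ± 0.19, adjusted p = 0.0618).

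CDC20, the activator of the APC/C, had the largest SE of the 38. It read 8.78, 8.77 and 9.69 in large follicles and 9.83, 10.13 and 9.44 in small follicles, and its difference of -0.72 ± 0.27 did not pass (adjusted p = 0.126). UBE2C, an E2 enzyme of the APC/C, differed by -0.20 ± 0.17. BUB3, a partner of BUB1 and BUB1B that is also present outside mitosis, read 10.98, 10.72 and 10.88 against 10.92, 10.93 and 10.59 (0.05 ± 0.13) and overlapped throughout.

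Of 6 kinetochore genes CENPN and ZWINT fell and 4 did not pass (median difference -0.53). CENPN, which binds the centromeric nucleosome, read 8.16, 8.07 and 8.49 in large follicles and 9.27, 9.15 and 8.74 in small follicles (-0.81 ± 0.17, adjusted p = 0.0166). That probe set can bind several transcripts, and the other CENPN probe set read -0.32 ± 0.18 and did not pass. ZWINT, which links the outer kinetochore to the checkpoint, had a small difference of -0.36 ± 0.10 with tight replicates: 8.17, 8.07 and 8.14 against 8.45, 8.59 and 8.41 (adjusted p = 0.0443, the passing gene nearest the threshold). NDC80, the microtubule-binding subunit of the outer kinetochore, lay just outside at adjusted p = 0.0509, with 7.67, 7.60 and 8.12 against 8.39, 8.70 and 8.19 and no overlap (-0.63 ± 0.18). CENPF, a large protein of the outer kinetochore, differed by -0.63 ± 0.23, and SPC24, a subunit of the NDC80 complex, by -0.43 ± 0.22. CENPA, the centromeric histone, had a signal below the median of all probe sets, at 4.15 ± 0.06 against 4.21 ± 0.05 (SD, n = 3 each), and differed by -0.06 ± 0.09.

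None of the 5 genes of mitotic kinases and the chromosomal passenger complex passed, and all 5 differences were below 0 (median -0.28, with 2 at an unadjusted p under 0.05). PLK1, the polo kinase of centrosomes and kinetochores, read 7.94, 7.64 and 8.22 in large follicles and 8.61, 8.94 and 8.25 in small follicles. The groups did not overlap, although the replicate 3 arrays differed by only -0.03 (-0.67 ± 0.20, adjusted p = 0.0658). CDCA8, the passenger protein borealin, read 7.96, 8.05 and 8.80 against 9.16, 9.19 and 8.62 (-0.72 ± 0.24, adjusted p = 0.093). BIRC5, the passenger protein survivin, read 9.59, 9.23 and 9.90 against 9.95, 10.11 and 9.51 (-0.28 ± 0.20, adjusted p = 0.434). The aurora kinases AURKA, of the spindle poles, and AURKB, of the passenger complex, differed by -0.23 ± 0.16 and -0.25 ± 0.23. A second, dimmer probe set of AURKB read -0.74 ± 0.23 and did not pass, so the size of its difference depends on the probe set.

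The 7 spindle genes held 2 that fell, NUSAP1 and STMN1, and 5 that did not pass, with a median of -0.51. NUSAP1, which bundles spindle microtubules near chromosomes, read 9.38, 9.37 and 9.80 in large follicles and 10.39, 10.52 and 10.11 in small follicles (-0.82 ± 0.15, adjusted p = 0.0122). STMN1, stathmin, which destabilises microtubules in dividing and in resting cells, read 12.39, 12.35 and 12.53 against 13.01, 12.93 and 12.71 (-0.46 ± 0.11, adjusted p = 0.032). TPX2, an activator of aurora A on the spindle, differed nearly as much as NUSAP1 at -0.80 ± 0.24, but large-follicle replicate 3 (9.68) exceeded small-follicle replicate 3 (9.56) and it did not pass (adjusted p = 0.0687). The microtubule-depolymerising kinesin KIF2C read 6.68, 6.35 and 7.13 against 7.42, 7.57 and 7.05 (-0.63 ± 0.21, adjusted p = 0.0912). ASPM, of the spindle poles, and HMMR, a spindle-associated protein, differed by -0.51 ± 0.15 and -0.50 ± 0.19, and the chromokinesin KIF4A by -0.23 ± 0.17.

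Of 3 cytokinesis genes 1 fell. ECT2, the exchange factor that activates RhoA at the cleavage furrow, had the smallest p of the 38: it read 8.70, 8.42 and 8.81 in large follicles and 9.38, 9.57 and 9.32 in small follicles (-0.78 ± 0.13, adjusted p = 0.00746). The difference between its replicate 3 arrays, -0.51, was the lowest of the 38. Its other probe set read -0.52 ± 0.15, also without overlap, and did not pass (adjusted p = 0.0563). The kinesins of the central spindle, KIF23 and KIF20A, differed by -0.65 ± 0.20 and -0.59 ± 0.20 (adjusted p = 0.0699 and 0.0957). KIF23 read 8.25, 7.85 and 8.52 against 8.91, 9.12 and 8.54, and its replicate 3 arrays differed by -0.02.

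The 3 measured condensin genes, whose products compact mitotic chromosomes, were NCAPG, NCAPH and SMC4. NCAPG fell: it read 7.64, 7.80 and 8.25 in large follicles and 8.65, 8.73 and 8.44 in small follicles (-0.71 ± 0.16, adjusted p = 0.0267). NCAPH read 6.74, 6.85 and 7.45 against 7.79, 7.89 and 7.38 (-0.67 ± 0.21, adjusted p = 0.0703), overlapping by 0.07 at replicate 3. SMC4, the ATPase shared by the condensins, read 7.72, 8.05 and 8.24 against 8.30, 8.59 and 8.59 without overlap (-0.49 ± 0.15, adjusted p = 0.0723). In SMC4 small-follicle replicate 3 was 0.14 above the mean of the other small-follicle arrays.

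**Figure D3:**
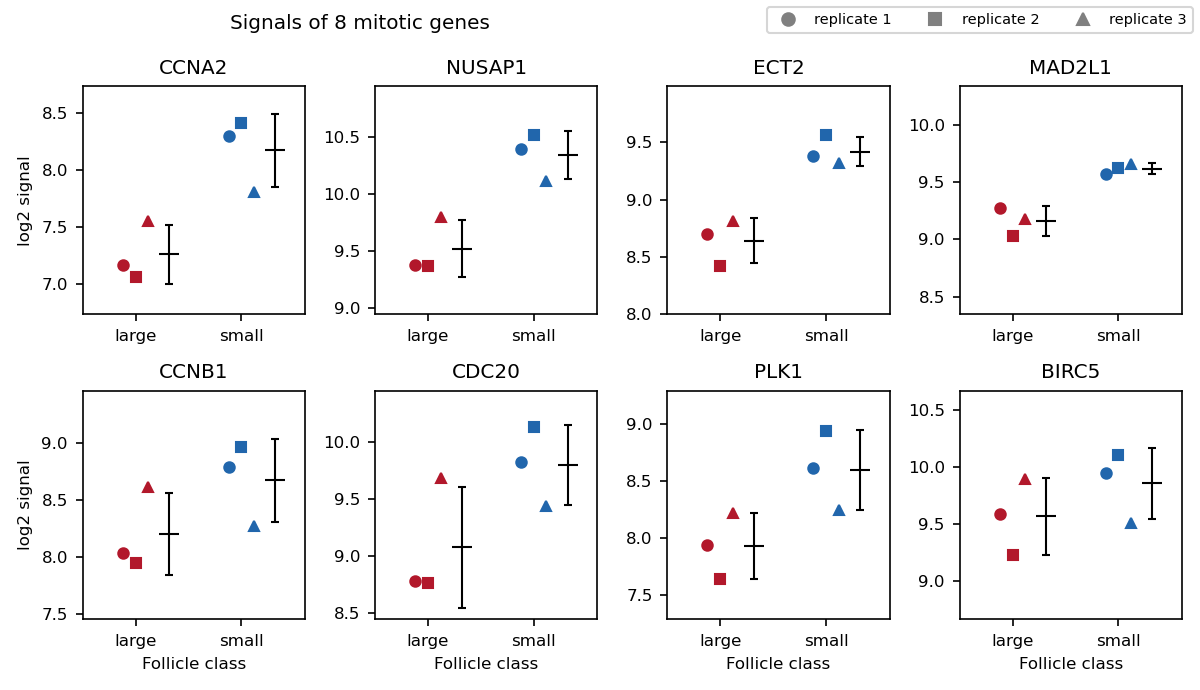
Log2 signal (vertical axes, each spanning 2 log2 units) of 8 mitotic genes in each array by follicle class, with the mean ± SD of 3 arrays at the right of each group. In CCNA2, NUSAP1, ECT2, MAD2L1 and PLK1 the groups do not overlap, and in CCNB1, CDC20 and BIRC5 the triangle of large-follicle replicate 3 lies above that of small-follicle replicate 3.

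The overlap of the groups came from the replicate 3 arrays in most genes. In the means of replicates 1 and 2, all 38 genes were lower in large follicles, by -0.04 to -1.26 with a median of -0.87. Between the replicate 3 arrays 23 genes were higher and 15 lower in the large-follicle array, from -0.51 to 0.58 with a median of 0.08. CDCA3 (0.58), AURKB (0.52) and CDK1 (0.46) lay at the upper end, and ECT2 (-0.51), MAD2L1 (-0.48) and SMC4 (-0.35) at the lower end, all picked after their values were seen. With both replicate 3 arrays left out, limma called 26 of 38 genes lower (68.4%, against 6.28% of all genes) and 0 higher at adjusted p. At an unadjusted p under 0.05, 35 were lower and 0 higher, a cut not counted over all genes in that fit. That fit was chosen after the data were seen and because of these genes, and so it is a description.

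**Figure D4:**
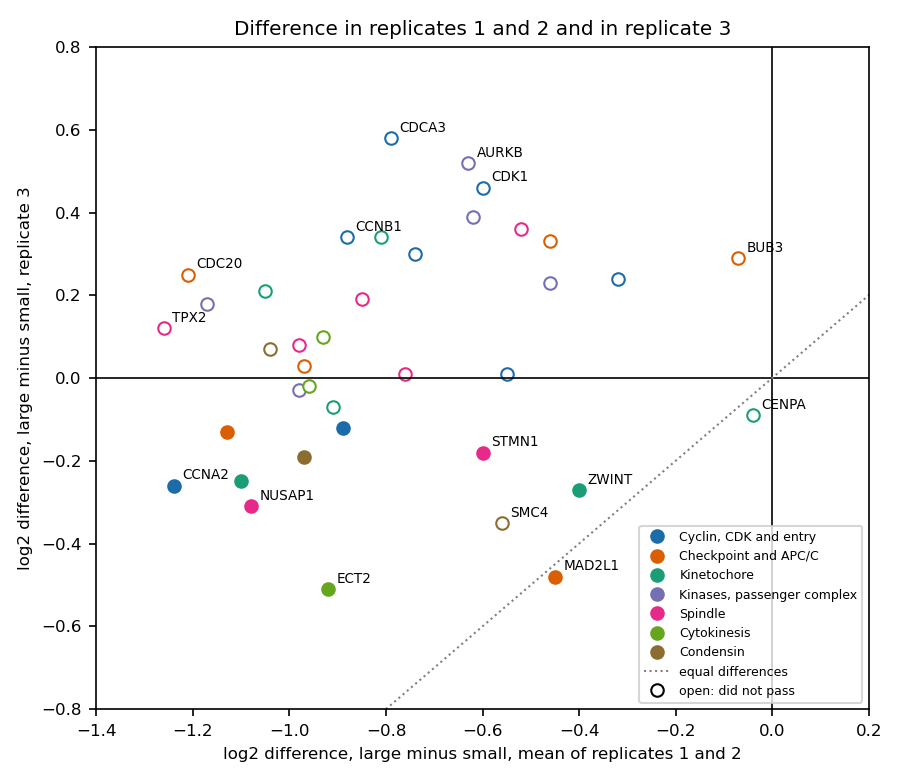
Log2 difference between large and small follicles in the means of replicates 1 and 2 (horizontal axis) and between the replicate 3 arrays (vertical axis) for the 38 mitotic genes, coloured by role, filled where the adjusted p was under 0.05. All points lie left of 0 on the horizontal axis (median -0.87), while on the vertical axis 23 lie above and 15 below 0.

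Most calls were lost when replicate 1 or 2 of either group was left out. A fit without 1 array has less precision, and calls over all probe sets also fell, from 3094 to between 1615 and 2477. Without large-follicle replicate 1, 3 genes were called lower (7.89%, against 4.28% of all genes), and without large-follicle replicate 2, 2 were (5.26% against 4.8%). Without small-follicle replicate 1 or 2, 2 genes were called lower each time (5.26%, against 4.54% and 3.6% of all genes). In these 4 fits the share of mitotic genes called lower rested on 2 or 3 genes and lay little above that of all genes. At an unadjusted p under 0.05, 19, 18, 20 and 18 of the 38 were lower in these fits, and 0 higher. No count over all genes was made at that cut in these fits, and the 38 genes moved together from array to array. At least 37 of the 38 differences stayed below 0 in each. Without large-follicle replicate 3, 20 genes were called lower (52.6% against 6.87%), and without small-follicle replicate 3, 16 (42.1% against 6.42%). ECT2 and NUSAP1 were called whichever array was left out, and ZWINT in none of these 6 fits. The median difference stayed between -0.43 and -0.68 in these fits.

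A sign of RNA quality moved with the groups. The 3'-end excess, taken as the 3' minus the 5' probe set in 6 bovine control transcripts and averaged, was 2.15, 1.77 and 2.01 log2 units in large follicles and 2.68, 2.53 and 2.16 in small follicles. Large-follicle replicate 1 and small-follicle replicate 3 were close, and the groups did not overlap (difference -0.48; 2-sided exact permutation test, p = 0.1, which is the lowest value 3 arrays a group can reach). Fitted together with the 3'-end excess, limma called 0 of the 38 mitotic genes, and 0.492% of all genes lower. At an unadjusted p under 0.05, 4 of the 38 were lower and 1 higher, a cut not counted over all genes in this fit. The median difference of the mitotic genes was then -0.21, with 29 of 38 below 0 and a median SE of 0.25 against 0.19 without it. Because the 3'-end excess did not overlap between groups, this fit cannot cleanly separate it from follicle class. Within groups, large-follicle replicate 2 and small-follicle replicate 3 had the lowest excess and the lowest mitotic signals. The highest excess was in replicate 1 of each group, and the highest mitotic signals in large-follicle replicate 3 and small-follicle replicate 2. The part of RNA quality in the result was not tested.

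The arrays read mainly as granulosa-lineage cells, with signal for some theca and stromal markers as well. Of 12 measured granulosa and cumulus markers, INHBA, INHA, CYP19A1 and AMH averaged above 10 on the log2 scale in both groups, and the list's mean signal ran from 10.87 to 11.00 in large follicles and from 10.29 to 10.44 in small follicles. FOXL2, a transcription factor of granulosa cells, read low, at 4.89 against 4.58. Of these markers 7 rose and 1 fell, against 7.08% and 8.3% of all genes. The marker that fell was GATM, an enzyme of creatine synthesis, which was named after its value was seen and differed by -1.20 ± 0.29 (adjusted p = 0.0315). Most of the 9 measured oocyte markers were low: GDF9 averaged 4.81 against 4.77, and BMP15, ZP2 and ZP4 averaged under 3.83, the lower quartile over all probe sets. The exception was UCHL1, at 11.99 against 12.14. Of 15 leukocyte markers 2 rose and 0 fell, where 7.08% of all genes were higher and 8.3% lower. Their mean signals were 5.18, 4.49 and 4.28 in large follicles and 4.16, 4.01 and 4.56 in small follicles. Of 8 stromal markers 0 passed (2 higher and 1 lower at an unadjusted p under 0.05), and their mean signal was 7.0, 6.70 and 6.46 in large and 6.44, 6.68 and 7.38 in small follicles. The stromal mean was thus highest in small-follicle replicate 3, the small-follicle array with the lowest mitotic signals, and lowest in small-follicle replicate 1 and large-follicle replicate 3. It was nearly equal, at 6.70 and 6.68, in large-follicle and small-follicle replicate 2, the arrays with the lowest and highest mitotic signals. COL1A2, COL3A1, DCN and LUM were highest in small-follicle replicate 3, and COL1A1, PDGFRA, ACTA2 and MYH11 in other arrays. Among 6 measured theca markers, INSL3, NR2F2 and TCF21 averaged above the median of all probe sets, and CYP17A1, STAR and PTCH1 below it. In large against small follicles, INSL3 read 9.41 and 9.38, NR2F2 7.58 and 8.34, and TCF21 7.37 and 6.78. Of the 6, NR2F2 alone passed, lower in large follicles. The part of other cell types in the result was not tested.

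Secondary probe sets of the mitotic genes mostly read in the same direction with a smaller median. Of 20, 18 read below 0, and the median was -0.23. Limma called 0 of the 20, where 7.16% of all probe sets were lower and 5.72% higher. At an unadjusted p under 0.05, 4 were lower and 0 higher, against 1525 and 1332 of all 9155 genes, so the count lower was near the background. Of the 20, 6 averaged under 3.83, the lower quartile over all probe sets. In 13 of 15 genes with several probe sets these were of the same sign. The exceptions were BUB3, at 0.05 and -0.11, and HMMR, whose 5 probe sets ran from -0.50 at the brightest to 0.09 at a signal of 2.87.

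Other mitotic genes, listed from textbook knowledge, gave calls in the same direction. Of 107 listed, 68 were measured, and of these 13 fell, 0 rose and 55 did not pass. The share lower was 19.1%, against 8.3% of all genes, and the median difference was -0.39. At an unadjusted p under 0.05, 36 of the 68 were lower and 0 higher, against 1525 and 1332 of all 9155 genes. The 10 with the smallest p spanned several steps. LMNB1, a lamin of the nuclear envelope, averaged 8.03 ± 0.17 against 9.16 ± 0.20 (SD, n = 3 each), a difference of -1.13 ± 0.14 (adjusted p = 0.00256). FBXO5, the inhibitor EMI1 of the APC/C, differed by -1.10 ± 0.21, and WEE1, the kinase that restrains CDK1, by -0.67 ± 0.11.

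The kinetochore genes among these 10 were MIS12, NSL1 and SPDL1. MIS12 and NSL1 encode subunits of the complex that joins the inner to the outer kinetochore and differed by -0.87 ± 0.13 and -0.73 ± 0.13, and SPDL1, an adaptor of dynein at kinetochores, by -0.84 ± 0.15. The APC/C subunits ANAPC4 and CDC23 differed by -0.52 ± 0.10 and -0.49 ± 0.12. CKAP2, a spindle protein, and NCAPG2, a subunit of condensin II, completed the 10 at -0.90 ± 0.18 and -0.80 ± 0.18. The replicate 3 pattern was present here too, with 51 of 68 genes (75%) higher in large-follicle replicate 3 and lower in small-follicle replicate 3 than in the other arrays of their group. Fitted with the 3'-end excess, limma called 0 of the 68. At an unadjusted p under 0.05, 9 were lower and 2 higher, a cut not counted over all genes in this fit.

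**Figure D5:**
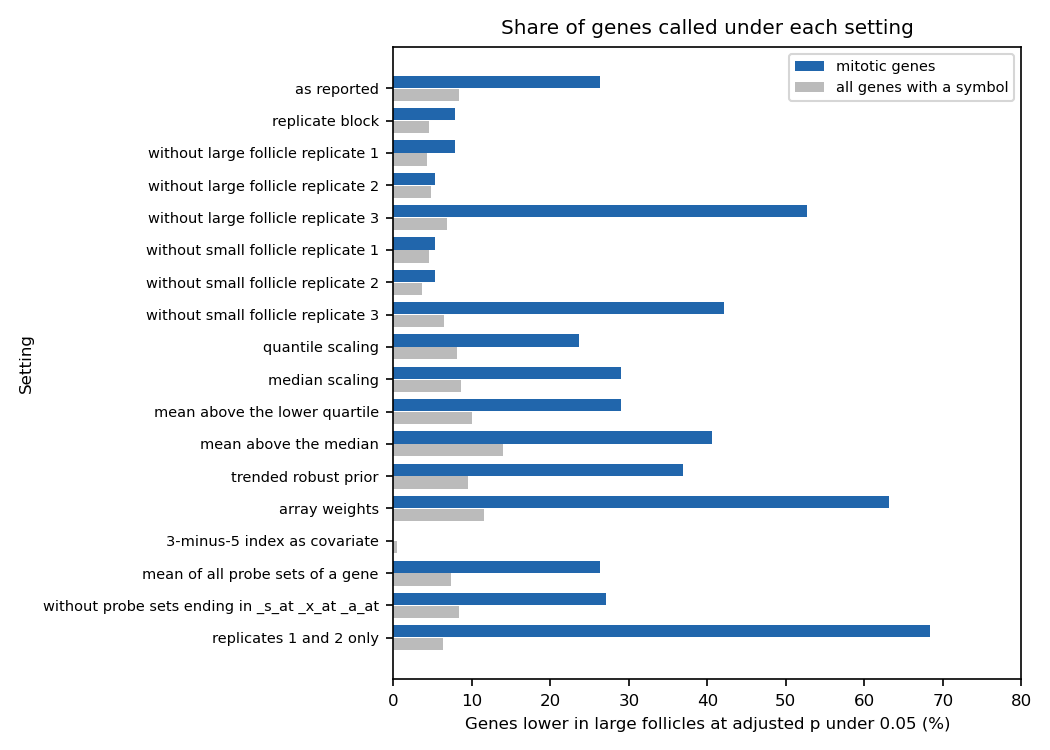
Share of genes called lower in large follicles at an adjusted p under 0.05 (horizontal axis, percent) among the 38 mitotic genes (blue) and among all genes with a symbol (grey) under each setting (vertical axis). The mitotic share is 26.3% as reported, 68.4% with replicates 1 and 2 only, and 0% when the 3'-end excess (3-minus-5 index) was fitted as well.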

How the data were processed

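Each of 6 Affymetrix bovine arrays measured RNA from a pool of cumulus cells. The authors deposited log2 signals per probe set, produced by RMA according to the submitters' processing notes, with no version or settings named. Array medians lay between 5.64 and 5.68. Without 112 control probe sets, 24016 remained: 13292 with 1 gene symbol in the platform annotation, 86 with several and 10638 with none. RefSeq (ARS-UCD2.0, names only) held the gene identifiers of 13263 of the single-symbol probe sets.

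Large minus small was fitted by limma 3.58.1 (R 4.3.3; lmFit, eBayes, no block, no filter; total degrees of freedom 8.28). An error after ± is the moderated SE unless marked SD. Counts use the brightest probe set of a gene. The procedure was run on simulated data with independent noise in each probe set, which lack the shared array shifts of the mitotic genes.

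The members and lists were chosen with earlier results of these data known. Named by rule were called genes, the 2 uncalled genes of each role with the largest difference, fixed genes (MKI67, TOP2A, CCNB1, CDK1, PLK1, AURKA, BIRC5), genes whose probe sets disagree or that lie next to the threshold, and the 10 smallest p of the other mitotic list. Of the marker lists, theca, endothelial, erythroid and oocyte held 1, 1, 0 and 0 called genes, the called ones lower.

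Alternatives tried were each array left out in turn, the replicate number as a block, quantile and median scaling, filters on dim probe sets, a trended robust prior, array weights, the 3'-end excess as a covariate, averaging the probe sets of a gene, dropping probe sets shared between transcripts, and, added after seeing the data, replicates 1 and 2 only. Figures used python 3.11.15 and matplotlib 3.10.9.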

Additional observations from a re-analysis of the deposited data

How the results depend on the processing

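Every call of a mitotic gene was lower in large follicles in the 17 alternatives run, but the number of calls moved. Against 10 of 38 genes, 10 of 58 probe sets, 13 of 68 other mitotic genes and 3094 of all probe sets, the replicate block gave 3, 3, 8 and 1964 (7.89% of mitotic genes lower, near the 4.54% of all genes), and the 3'-end excess as a covariate 0, 0, 0 and 215. Array weights gave 24, 27, 27 and 4069, with 63.2% of mitotic genes lower against 11.5% of all genes. Replicates 1 and 2 only gave 26, 30, 35 and 2171, with 68.4% lower against 6.28%. A filter at the median of signals gave 16 of 44 probe sets of mitotic genes, where 14.7% of all probe sets kept were lower. Leaving out 1 array gave 2 to 20 mitotic genes, 2 to 24 of their probe sets, 6 to 25 other mitotic genes and 1615 to 2477 of all probe sets. The median difference of -0.50 became -0.21 with the 3'-end excess and -0.87 with replicates 1 and 2 only. Both scalings, the lower-quartile filter, averaged probe sets and dropping shared ones gave 9 to 11 genes, where 7.35% to 10% of all genes were lower. The labels do not say whether same-numbered arrays share animals or days. Deviations of same-numbered arrays from their group means correlated at 0.00, -0.05 and -0.34, and no array correlated best with its own number. With 3 arrays a group these values cannot exclude pairing. The block kept ECT2 and NUSAP1 and added SMC4. ECT2 and NUSAP1 were each called in 16 of the 17, and lost with the 3'-end excess. Signs turned in 12 cases, none called: with the 3'-end excess CDK1 read 0.24, CKS1B 0.04, CDCA3 0.10, UBE2C 0.02, SPC24 0.13, AURKA 0.14, BIRC5 0.22 and KIF4A 0.13. BUB3 ran from -0.06 to 0.12 leaving out 1 array, with -0.01 without large-follicle replicate 1, and read -0.03 averaged over its probe sets and -0.08 with replicates 1 and 2 only. The causes were not tested.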

Other observations

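Regulators that switch mitotic genes on or off were also listed: E2F factors and their DP partners, pocket proteins, the MuvB core, MYBL2, FOXM1 and the NF-Y subunits that bind CCAAT boxes. Among the 14 on the array out of 20 listed, limma with Benjamini-Hochberg adjustment called 2 higher and 1 lower in large follicles, where 7.08% of all genes were higher and 8.3% lower, so these counts are near the background, and the median difference was -0.08. NFYB, a histone-fold subunit of NF-Y, read 9.23, 9.23 and 9.13 in large follicles and 9.74, 9.62 and 9.57 in small follicles (-0.45 ± 0.09, adjusted p = 0.0194), without the approach of the replicate 3 arrays seen in the mitotic genes. Its partners NFYA (0.17 ± 0.10) and NFYC (0.00 ± 0.13) did not pass. E2F5, a mainly repressive E2F, read 9.52, 9.26 and 9.36 against 9.05, 9.01 and 8.88 (0.40 ± 0.11, adjusted p = 0.0431), and TFDP2, a DP partner, read 6.11, 6.54 and 6.27 against 5.76, 5.79 and 5.92 (0.48 ± 0.13, adjusted p = 0.041). MYBL2, an activator of G2 and M genes, read 6.68, 6.60 and 7.17 against 7.35, 7.14 and 6.70 (-0.25 ± 0.20, adjusted p = 0.5), with large-follicle replicate 3 above small-follicle replicate 3. E2F1 differed by -0.24 ± 0.17 and did not pass, and FOXM1 was not analysed here.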
